A study of Lactuca sativa with 36 samples.

Results

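A set of 100 genes of Italian lettuce, a leafy variety of Lactuca sativa, was described, whose summed FPKM on the first day of CdCl2 was lower in roots and higher in leaves than on day 0. FPKM is the number of fragments scaled by the length of the transcript in kilobases and by the fragments of the library, and the values of the isoforms of a gene were added up. The set was chosen from 19584 genes on these measured values. A total of 16027 genes had at least 1 FPKM in 3 libraries of each tissue, and in 219 of them all 3 RCd1 libraries lay below all 3 RCd0 libraries while all 3 LCd1 libraries lay above all 3 LCd0 libraries. These 219 were ordered by the smaller of the 2 mean changes in log2(FPKM + 1), and the first 100 are the members. The level filter counted the libraries of all groups. Below, libraries used by the selection are those of the separation and the score, RCd0, RCd1, LCd0 and LCd1.

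The 36 libraries were made from roots (R) and leaves (L) of seedlings in 12 groups of 3 libraries. CdM stands for 1 µmol/L melatonin in the nutrient solution before 50 µmol/L CdCl2, and Cd for the same CdCl2 with no melatonin. The last digit of a group name is the day of CdCl2 (0, 1 or 5), so RCdM0, RCdM1 and RCdM5 are melatonin roots, RCd0, RCd1 and RCd5 are roots with Cd alone, and LCdM0, LCdM1, LCdM5, LCd0, LCd1 and LCd5 are the same groups of leaves. All plants were of the same variety, and all groups were assigned to CdCl2, with day 0 as its start. A group free of CdCl2 on day 1 or day 5 was not analysed here, so the effect of Cd cannot be told apart from that of age or of the day of harvest. Whole organs were sampled, and fewer cells of a type and less RNA per cell cannot be told apart in such samples. The labels speak of biological repeats and do not say which plants were pooled, so p-values measure the spread between these libraries. Growth before CdCl2 is labelled as 21 days for replicate 2 of LCdM1 and of RCdM1, and as 20 days for the other libraries.

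Cadmium is taken up from the nutrient solution by roots, which meet the metal first, and part of it moves with the xylem stream to the leaves. It has no known use in the metabolism of higher plants, and it displaces other metals from proteins, raises the level of reactive oxygen species and slows growth in both organs. Melatonin is an indole compound that plants make from tryptophan and that is given from outside in studies of stress tolerance. Roots and leaves share most of their genes, but the same gene can serve different cells in the 2 organs and can respond to a treatment of the whole plant in opposite directions.

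The tissue labels were first checked with leaf markers. The summed level of 76 photosynthesis genes was 3796 to 6769 FPKM in the 18 root libraries, against 175524 to 377965 FPKM in the 18 leaf libraries. Of these 76, 15 were new genes described as chlorophyll a-b binding or photosystem proteins, and 4 to 10 of the 15 were listed at 0 in a root library and 4 to 9 in a leaf library, so these zeros did not separate the tissues. The summed level of the 15 was 22.5 to 197 FPKM in root and 14902 to 39227 FPKM in leaf libraries. The 50 most abundant genes with a leaf level over 100 times the root level on day 0 of melatonin stood at a median of 0.0533 to 0.545% of their leaf level in root libraries. This share was 0.102 to 0.16% in RCdM1 and 0.326 to 0.545% in RCdM0. The genes were chosen on RCdM0 and LCdM0, so a low share in RCdM0 follows from the choice and is no check of the labels. The same holds for root genes in LCdM0. The 50 most abundant root genes, chosen in the same way, stood at 0.329 to 0.395% of their root level in LCdM1 and 0.43 to 0.594% in LCdM0. None of the 76 photosynthesis genes and 1 of the 50 root genes was a member. In roots the same 50 root genes stood at 56.7 to 78.1% of their RCdM0 mean in RCdM1 and 93.6 to 112% in RCdM0, so abundant root genes were lower together with the members, and the part of this shift in the members' values was not tested. In roots with Cd alone, which did not choose these 50 genes, the share was 45 to 75% in RCd1 and 106 to 126% in RCd0. Sequencing quality also differed with the day. In both tissues the share of bases at Q30 was below that of all 3 CdM0 libraries in all 3 CdM1 libraries, while the ranges of the Cd1 and Cd0 libraries, which chose the members, overlapped.

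The values in this paragraph were used for the selection and are given as a description. Among the members the change of RCd1 minus RCd0 was between -3.43 and -0.43 with a median of -0.89 on the log2(FPKM + 1) scale, against a median of 0.01 over the 16027 genes. In leaves the change of LCd1 minus LCd0 was between 0.44 and 4.71 with a median of 0.87, against -0.05 over all. The last members, Lsat_1_v5_gn_1_129101 (score 0.44) and Lsat_1_v5_gn_6_44241 (0.43), and the first genes outside, Lsat_1_v5_gn_6_110001 (0.43) and Lsat_1_v5_gn_3_75520 (0.43), had nearly the same score. The border between the 100 members and the other 119 separated genes was therefore not a step.

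The gene with the highest score, Lsat_1_v5_gn_7_11501, has no annotation in the tables used. It had 0, 0 and 5.89 FPKM in RCd1 and 56.3, 5.95 and 20.3 FPKM in RCd0. In leaves it had 28.2, 10.9 and 51 FPKM in LCd1 and was listed at 0 in all 3 LCd0 libraries. The first place of this gene rested on groups with libraries listed at 0, and the libraries outside the selection did not separate. It had 6.42, 19.6 and 12.6 FPKM in RCdM1 and 14.3, 35.1 and 0 FPKM in RCdM0. Leaves had 33.5, 0 and 0 FPKM in LCdM1 and 8.49, 0 and 8.14 FPKM in LCdM0. In both tissues its melatonin groups overlapped and its change ran against the direction of the selection, by 0.64 ± 1.48 (SE) in roots and -0.44 ± 1.57 (SE) in leaves, with adjusted p = 0.914 and 0.954. The second gene, Lsat_1_v5_gn_3_135061 (metabolic process), was low, with 1.08, 0.646 and 0 FPKM in RCd1 and 4.16, 5.31 and 2.22 FPKM in RCd0, and its melatonin groups overlapped as well.

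Libraries of the melatonin plants were not used for the separation or the score, and they hold the same contrast in other samples. They did count in the level filter, so they are not fully apart from the choice of members. In melatonin roots 93 of 100 members were lower on day 1 than on day 0, with a median change of -0.54, against -0.03 over the 17048 genes tested. An adjusted p under 0.05 was reached by 4 members, all lower, where 0.463% of all genes were called lower. With an unadjusted p under 0.05, 55 of 100 members were lower and 0 were higher, while 8.79% of all genes were lower by this rule and 2286 of 17048 reached it in either direction. All 3 RCdM1 libraries lay below all 3 RCdM0 libraries in 52 members, against 13.1% of the 16027 genes, and lay above them in 0 members, against 7.38% of genes. Most members were thus lower in melatonin roots as in the roots that chose them, and few of them passed the test adjusted over all genes. The day 1 and day 0 libraries of melatonin roots did not overlap in the quality of the reads. The change of the members and this quality therefore cannot be told apart.

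**Figure D1:**
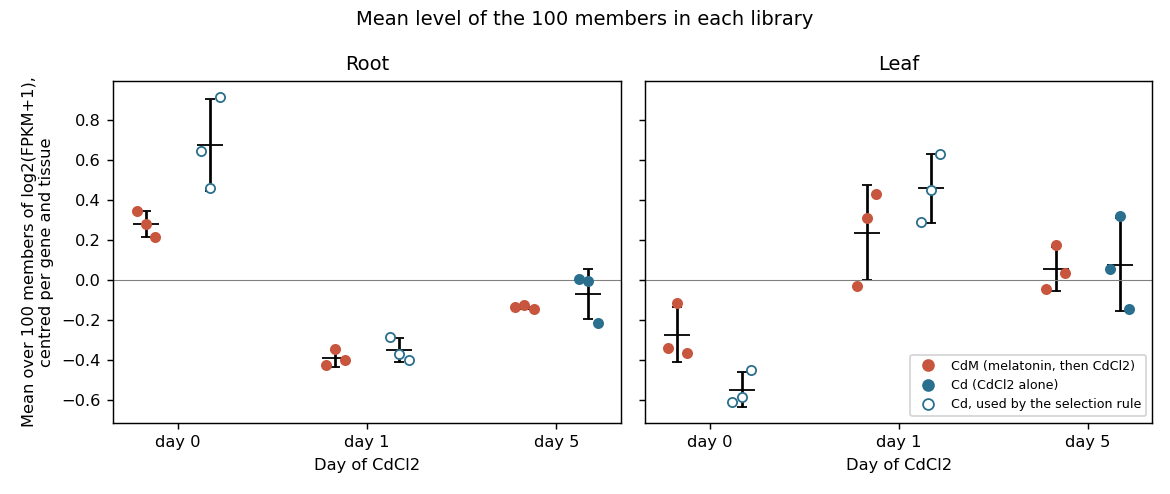
Mean over the 100 members of log2(FPKM + 1), centred on the mean of each gene in the tissue (y axis), in each library by day of CdCl2 (x axis), for roots (left) and leaves (right). Points are libraries, bars are the mean and SD of 3 libraries, and open points are the libraries used by the selection. The 3 RCdM1 libraries sit between -0.43 and -0.34, below the 3 RCdM0 libraries between 0.21 and 0.34. In leaves LCdM1 replicate 1 sits at -0.03, near the highest LCdM0 library at -0.12, and the other LCdM1 libraries at 0.31 and 0.43.

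The 4 members that fell in melatonin roots lost a large share of their level. Lsat_1_v5_gn_1_28741, with terms of histone acetyltransferase and transcription cofactor activity, proteins that add acetyl groups to histones and help transcription factors, had 12.8, 15.9 and 11.3 FPKM in RCdM1 and 121, 64.2 and 80.8 FPKM in RCdM0. Its change was -2.61 ± 0.30 (SE), adjusted p = 0.0067. Lsat_1_v5_gn_8_123541 (not annotated) had 26, 19.6 and 9.78 FPKM in RCdM1 and 128, 56.2 and 90.3 FPKM in RCdM0, a change of -2.27 ± 0.41 (SE), adjusted p = 0.0399. The groups of both genes were far apart, with every day 1 root below 30 FPKM and every day 0 root above 50 FPKM. Lsat_1_v5_gn_2_12921 (not annotated) had 66.8, 85.4 and 89.5 FPKM in RCdM1 and 449, 214 and 236 FPKM in RCdM0, with -1.81 ± 0.34 (SE), adjusted p = 0.0494. Novelgene1860, a new gene of the study without a description in the tables used, had 448, 286 and 281 FPKM in RCdM1 and 1396, 870.4 and 909 FPKM in RCdM0, with -1.65 ± 0.30 (SE), adjusted p = 0.0411. For none of the 4 did the melatonin leaves show the opposite change beyond the spread. Their leaf changes were -0.00 ± 0.54, -0.05 ± 0.59, 0.19 ± 0.55 and -0.35 ± 0.60 (SE), in the same order. The root change minus the leaf change of these 4 was not called, with adjusted p = 0.101, 0.254, 0.255 and 0.544. Novelgene1860 had 14.1, 6.55 and 4.31 FPKM in LCdM1 and 7.82, 15.8 and 7.36 FPKM in LCdM0, and 0.842% of its mean in RCdM0, the highest root share seen in a leaf library, would come to 107% of its mean in LCdM1. For 23 members this value was above 5%. The share of 0.842% was that of LCd0 replicate 3. The LCdM1 libraries themselves had lower shares, of 0.329 to 0.395%, so these values are at the upper end. With Q30 as a covariate 0 members and 0 of all 17048 genes were called in melatonin roots. The median change of the members was then -0.55, with 85 of 100 negative and 23 lower at an unadjusted p under 0.05. Without RCdM0 replicate 1 or 3 or without RCdM1 replicate 2 or 3 the count of members called was 1, and without RCdM1 replicate 1 it was 2. Of the 4 calls, that of Lsat_1_v5_gn_1_28741 was made under 12 of 13 alternatives. Those of Lsat_1_v5_gn_8_123541 and Novelgene1860 were made under 5 each, and that of Lsat_1_v5_gn_2_12921 under 3.

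In melatonin leaves 85 of the 98 members tested were higher on day 1 than on day 0, with a median change of 0.48, against -0.04 over the 16572 genes tested. The test with limma and Benjamini-Hochberg adjustment called 0 members, where 0.0543% of all genes were called higher. At an unadjusted p under 0.05, 23 members were higher and 0 lower, against 4.45% of all genes higher, and 1742 of 16572 genes reached it in either direction. All 3 LCdM1 libraries lay above all 3 LCdM0 libraries in 28 members, where 7.37% of the 16027 genes showed this, and lay below them in 0 members, where 10.4% of genes did. With Q30 as a covariate the median change of the members in leaves was 0.05, with 56 of 98 members positive. In the melatonin leaves the change of the members and the quality of the reads cannot be told apart, since the day 1 and day 0 libraries did not overlap in quality. Without LCdM1 replicate 1 the count of members called was 2, and without LCdM0 replicate 3 it was 1.

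**Figure D2:**
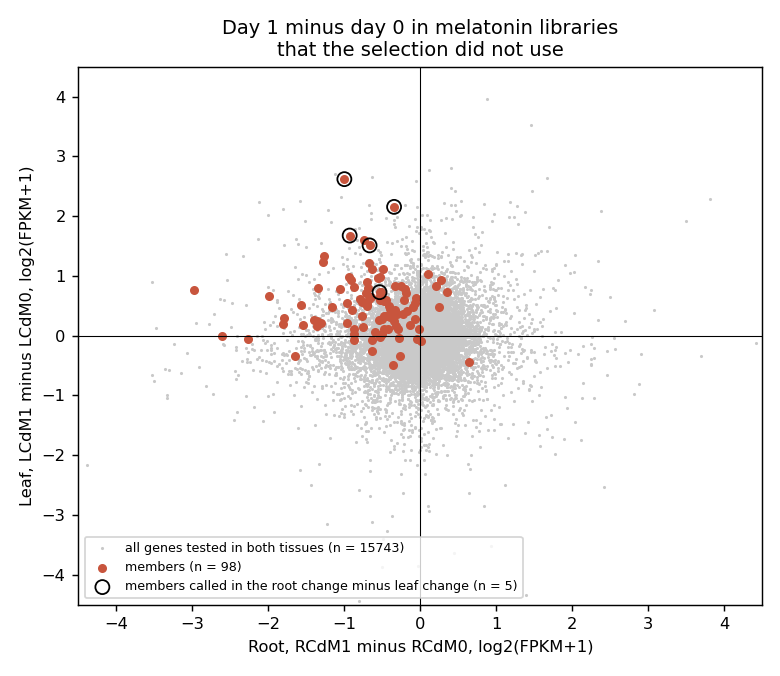
Change of day 1 minus day 0 in melatonin roots (x axis) and melatonin leaves (y axis), both as differences of mean log2(FPKM + 1). Grey points are the 15743 genes tested in both tissues, of which 7 lie outside the axes, filled points are 98 members, and circles mark the 5 members called in the difference between the changes. A total of 80 members lie in the upper left quadrant, lower in roots and higher in leaves.

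The root change minus the leaf change was tested within the melatonin plants. The test asks if the 2 changes differ and not if their signs are opposite, so a change in a single organ can be called. The difference was negative in 95 of 100 members, with a median of -1.09, against -0.01 over 17932 genes. It was called in 5 members, all negative, where 0.229% of all genes were called negative. At an unadjusted p under 0.05 it was 55 members, against 6.21% of all genes. None of the 5 called members was among the 4 called lower in melatonin roots, and 0 members were called in melatonin leaves. No member thus passed the adjusted test of day 1 against day 0 in both organs. Taken by sign alone, 80 of 98 members (81.6%) were lower in melatonin roots and higher in melatonin leaves, as were 24% of the genes tested in both tissues. Complete separation in both tissues, with RCdM1 below RCdM0 and LCdM1 above LCdM0, was met by 14 members and by 0.817% of the 16027 genes.

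The largest difference among the 5 belonged to Lsat_1_v5_gn_9_26160, whose terms include oxidoreductase activity on a sulfur group of donors, cell communication and RNA metabolic process. It had 13.5, 15.9 and 11.3 FPKM in RCdM1 and 30.0, 28.9 and 25 FPKM in RCdM0. In leaves it had 14.6, 41.7 and 26.9 FPKM in LCdM1 and 4.32, 3.77 and 2.15 FPKM in LCdM0. The groups did not overlap in either organ, and the difference between the changes was -3.62 ± 0.51 (SE), adjusted p = 0.00266. With Cd alone this gene had 16.4, 39.4 and 35.2 FPKM in LCd1 and 3.4, 2.94 and 2.08 FPKM in LCd0, values that the selection used.

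Lsat_1_v5_gn_3_70280 (not annotated) had 61.5, 40.6 and 32.2 FPKM in RCdM1 and 112, 69.6 and 74.1 FPKM in RCdM0. Its leaves had 36.8, 28.5 and 25.6 FPKM in LCdM1 and 12.1, 5.17 and 10.3 FPKM in LCdM0, and the difference was -2.61 ± 0.42 (SE), adjusted p = 0.00766. Here too the groups were separate in both organs. Lsat_1_v5_gn_7_111881, with protein kinase terms, had 4.52, 2.7 and 2.8 FPKM in RCdM1 and 6.56, 7.54 and 3.83 FPKM in RCdM0. In leaves it had 23.4, 43.1 and 37.7 FPKM in LCdM1 and 10.8, 10.5 and 12.2 FPKM in LCdM0, with a difference of -2.18 ± 0.38 (SE), adjusted p = 0.0143. The root groups of this gene overlapped and its leaf groups did not. Lsat_1_v5_gn_6_20321, with terms of hydrolase activity on glycosyl bonds and transferase activity, had 28.5, 36.7 and 26.2 FPKM in LCdM1 and 3.61, 5.29 and 10.8 FPKM in LCdM0, while its roots had 6.49, 5.45 and 8.73 FPKM in RCdM1 and 7.06, 11.1 and 8.91 FPKM in RCdM0. The difference was -2.50 ± 0.52 (SE), adjusted p = 0.0454, and the leaf groups of this gene were separate while its root groups overlapped. Lsat_1_v5_gn_2_128000 (not annotated) was low, with 2.48, 1.48 and 1.38 FPKM in RCdM1, 2.61, 3.3 and 3.06 FPKM in RCdM0, 3.78, 2.95 and 3.02 FPKM in LCdM1 and 1.92, 1.37 and 1.41 FPKM in LCdM0. Its difference was -1.27 ± 0.27 (SE), adjusted p = 0.0499. Of these 5 calls, that of Lsat_1_v5_gn_9_26160 was made under all 19 alternatives, that of Lsat_1_v5_gn_3_70280 under 18, Lsat_1_v5_gn_7_111881 under 15, Lsat_1_v5_gn_2_128000 under 5 and Lsat_1_v5_gn_6_20321 under 4.

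**Figure D3:**
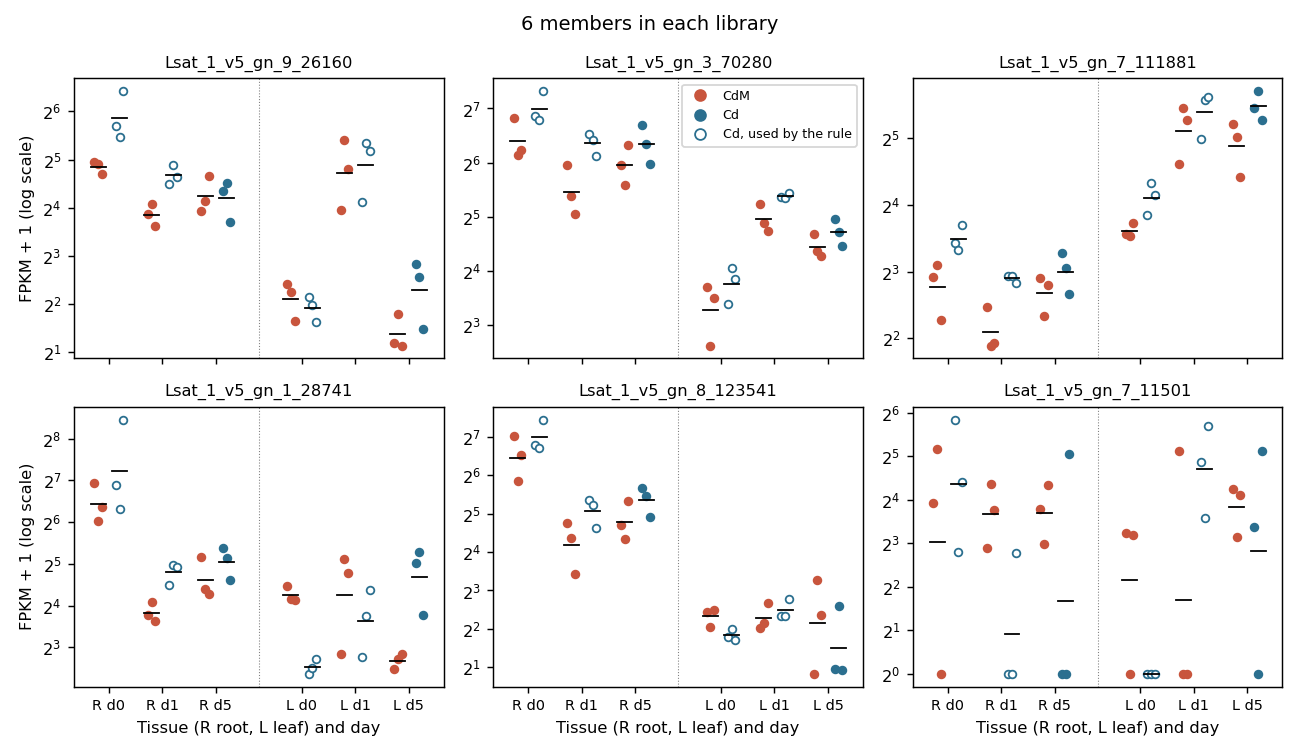
FPKM + 1 on a log scale (y axis) of 6 members in each library, by tissue and day (x axis). Points are libraries, lines are means on the log scale, and open points are libraries used by the selection. The upper 3 genes are lower in RCdM1 than RCdM0 on average and higher in LCdM1 than LCdM0, while Lsat_1_v5_gn_1_28741 and Lsat_1_v5_gn_8_123541 fell in melatonin roots by the test and Lsat_1_v5_gn_7_11501 has libraries at 0 beside higher values in several groups.

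The members were mostly root genes. At day 0 of melatonin, a pair of groups the selection did not use, 70 members were called higher in roots than in leaves, where 32.9% of 17932 genes were called higher, and 9 were called higher in leaves, where 28.4% of all genes were. The median of root minus leaf was 1.69 over the members and 0.10 over all genes. The root side was led by Novelgene1860, with 1396, 870.4 and 909 FPKM in RCdM0 and 7.82, 15.8 and 7.36 FPKM in LCdM0, a difference of 6.59 ± 0.50 (SE), adjusted p = 8.98e-10. Lsat_1_v5_gn_8_78720, with threonine biosynthesis terms, differed by 5.39 ± 0.39 (SE), adjusted p = 5.38e-10. Lsat_1_v5_gn_7_21481 (not annotated) had 282, 135 and 120.0 FPKM in RCdM0 and 5.24, 2.86 and 7.2 FPKM in LCdM0. The 9 members that were higher in leaves were led by Novelgene1418, described as a homolog of 1-aminocyclopropane-1-carboxylate oxidase, a family related to the enzyme that forms ethylene. It had 2.4, 2.33 and 6.07 FPKM in RCdM0 and 32.4, 33.4 and 42 FPKM in LCdM0, with -3.09 ± 0.33 (SE), adjusted p = 1.42e-07. The leaf side also held Lsat_1_v5_gn_2_59820, a plasma membrane protein by its term (-2.46 ± 0.36, SE), Lsat_1_v5_gn_1_58781, with the term lipid metabolic process (-1.59 ± 0.32, SE), and the kinase gene Lsat_1_v5_gn_7_111881 (-0.84 ± 0.27, SE).

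A gene that is higher in roots and then becomes lower there and higher in leaves can come closer to the same level in both organs. A gene that is higher in leaves moves further apart by the same changes. The median of root minus leaf over the members was 1.69 at RCdM0 and LCdM0, 0.53 on day 1 and 1.01 on day 5, while over the 16027 genes it was 0.07, 0.07 and 0.08. The number of members with a higher mean in roots was 85 on day 0, 64 on day 1 and 72 on day 5. The median of this signed difference was thus lowest on day 1 and was between the other values on day 5. The distance between the organs without its sign was not summarised. For each gene, the change of this difference from day 0 to day 1 is the root change minus the leaf change tested above, so it is no further result. The day 1 and day 5 values of root minus leaf were not themselves tested.

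**Figure D4:**
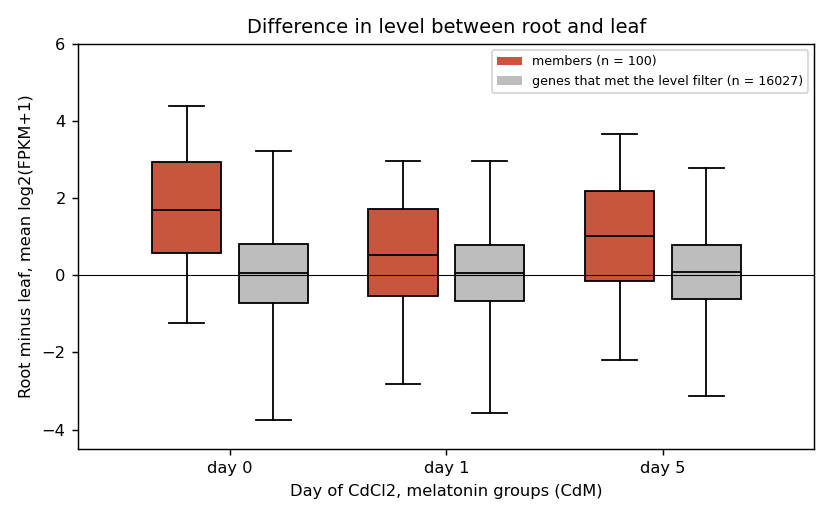
Root minus leaf difference of mean log2(FPKM + 1) (y axis) in the melatonin groups on day 0, 1 and 5 (x axis), for the 100 members (left box of each pair) and the 16027 genes that met the level filter (right box). Boxes show the quartiles and the median, and whiskers the percentiles 5 and 95. The members' median is 1.69, 0.53 and 1.01, while that of all genes stays between 0.07 and 0.08.

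With Cd alone, most members on day 5 were between their day 0 and day 1 levels. Day 0 and day 1 of these plants were used by the selection and no test was made. The selection took genes whose day 0 and day 1 values lay apart, so a day 5 mean between them is likely for this reason alone. The same share over all genes is not given here. No return towards day 0 is therefore read from the counts or medians with Cd alone. In roots, 78 of 100 members had a mean on day 5 between those of day 0 and day 1, 19 were at or below the day 1 mean, and 3 were at or above day 0. The median of RCd5 minus RCd0 was -0.66. In leaves 54 members were between both days, 29 at or above day 1 and 17 at or below day 0, and the median of LCd5 minus LCd0 was 0.52. In melatonin plants the median of day 5 minus day 0 was -0.41 in roots and 0.29 in leaves. The difference of day 5 minus day 1 was called for 0 members in melatonin roots, where 0.194% of all genes were called higher, and 23 members were higher and 1 lower at an unadjusted p under 0.05, which 2202 of 17048 genes reached in either direction.

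In melatonin leaves 5 of 98 members changed between day 1 and day 5. The 3 that fell, where 5.65% of all genes were called lower, were Lsat_1_v5_gn_9_26160, Lsat_1_v5_gn_3_47540 and Lsat_1_v5_gn_4_67740. Lsat_1_v5_gn_9_26160 had 1.29, 2.45 and 1.2 FPKM in LCdM5, below all its LCdM1 libraries given above and within or below the range of LCdM0, with -3.35 ± 0.43 (SE), adjusted p = 0.0106. Its leaf level was thus high on day 1 alone among the 3 melatonin days. Lsat_1_v5_gn_3_47540, with terms of steroid biosynthesis and methyltransferase activity, had 8.91, 9.85 and 13.1 FPKM in LCdM5 and 26.4, 34.9 and 42.4 FPKM in LCdM1, with -1.60 ± 0.21 (SE), adjusted p = 0.0106. Lsat_1_v5_gn_4_67740, with the term response to stimulus, had 35.6, 27.8 and 33.3 FPKM in LCdM5 and 46.9, 119 and 104 FPKM in LCdM1, with -1.36 ± 0.35 (SE), adjusted p = 0.0415. The 2 that rose, where 2.76% of all genes were called higher, were Novelgene1860 and Lsat_1_v5_gn_9_59961 (not annotated). Novelgene1860 had 95.2, 27.5 and 55.4 FPKM in LCdM5 and 14.1, 6.55 and 4.31 FPKM in LCdM1, with 2.67 ± 0.60 (SE), adjusted p = 0.0273. Lsat_1_v5_gn_9_59961 had 11.3, 18.7 and 8.9 FPKM in LCdM5 and 1.5, 1.11 and 4.78 FPKM in LCdM1, with 2.10 ± 0.41 (SE), adjusted p = 0.019. Both groups were separate for each of the 5 genes. The share of members called was close to that of all genes, and without LCdM1 replicate 2 the count was 0, without LCdM1 replicate 1 it was 9, and without LCdM1 replicate 3, LCdM5 replicate 1 or LCdM5 replicate 3 it was 3.

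Melatonin and Cd alone were compared on day 5, the only day whose Cd libraries the selection did not use. The difference RCdM5 minus RCd5 was called by limma for 0 of 100 members and for 0 of 17048 genes, with 694 genes and 2 members at an unadjusted p under 0.05. The difference LCdM5 minus LCd5 was called for 0 of 98 members and for 4 of 16572 genes, with 4 members higher and 14 lower at an unadjusted p under 0.05, which 1351 of the 16572 genes reached in either direction. The median over the members was -0.07 in roots and 0.04 in leaves. On day 0 and day 1 the Cd libraries had been used, so the differences are a description: the median of RCdM0 minus RCd0 was -0.38 and that of LCdM0 minus LCd0 was 0.24, and the medians on day 1 were -0.10 in roots and -0.15 in leaves. The Cd libraries of these differences are those the selection used, so nothing is read from them about melatonin.

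A term or a description was at hand for a part of the members. The term tables cover genes the study had found changed in these samples, so a list drawn from them is not independent of the direction of a gene. Of 100 members, 34 had a GO or KEGG term and 5 of 12 new genes had an entry in the description table. Of 1480 entries of genes under a term, 970 were complete and the others were cut short. A member without a term, or a list without a member, can therefore reflect a cut entry. Of 20 lists of such genes, 10 held a member. Protein kinase (138 genes) held 4, oxidation-reduction (238) 3, and cell wall (52) and lipid metabolism (127) 2 each. Hormone signal transduction (75), phenylpropanoid and flavonoid (72), protein folding (24), terpenoid and steroid (70), calcium ion binding (30) and transmembrane transport (92) held 1 each. The lists of nitrogen metabolism, metal ion transport, photosynthesis, ribosome biogenesis, glycolysis and carbon metabolism, transcription factor activity, chitinase, circadian rhythm, starch, sucrose and trehalose, and sulfur and glutathione, of 9 to 82 genes each, held 0. With 100 members among 16027 genes, lists of these sizes can hold few or none by size alone. The counts are therefore not read as a result about the members.

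The cell wall members were Lsat_1_v5_gn_2_45920 and Lsat_1_v5_gn_3_43161, both with terms of the apoplast and of glucan metabolism and hydrolase activity on glycosyl bonds, enzymes that remodel wall polymers as cells grow. Lsat_1_v5_gn_2_45920 had 164, 241 and 349.7 FPKM in LCdM1 and 159, 171 and 88.1 FPKM in LCdM0, and its roots had 741, 998 and 1345 FPKM in RCdM1 and 1136, 1005 and 1469 FPKM in RCdM0. Lsat_1_v5_gn_3_43161 had 16.9, 23.1 and 27.1 FPKM in LCdM1 and 12.1, 14.9 and 7.34 FPKM in LCdM0, and 36, 56.6 and 75.2 FPKM in RCdM1 and 69, 106 and 143 FPKM in RCdM0. For Lsat_1_v5_gn_3_43161 the leaf groups were separate and the root groups overlapped, and neither gene passed the adjusted test of day 1 against day 0 in melatonin roots or leaves. Of the other genes of this list, which had 51 tested in roots and 46 in leaves with the members included, 1 was called lower in melatonin roots and 1 higher in melatonin leaves.

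Among redox genes, Novelgene0889 was described as a chloroplastic thioredoxin-like protein, a small protein that reduces disulfide bonds. It had 17.9, 18.4 and 18.5 FPKM in RCdM1 and 76.5, 41.5 and 35.4 FPKM in RCdM0, with -1.36 ± 0.32 (SE), adjusted p = 0.0897. Its root groups did not overlap, but its leaf groups did, at 0.377, 1.44 and 3.87 FPKM in LCdM1 and 0.347, 2.22 and 1.72 FPKM in LCdM0. Lsat_1_v5_gn_1_30481, with the term peroxidase activity, enzymes that use hydrogen peroxide to oxidise other compounds, had 59, 53.1 and 75.9 FPKM in RCdM1 and 152, 76.2 and 93.2 FPKM in RCdM0. In leaves it had 9.55, 12.1 and 16.9 FPKM in LCdM1 and 6.64, 8.69 and 6.61 FPKM in LCdM0. Both organs were separate for this gene, with changes of -0.72 ± 0.24 and 0.71 ± 0.39 (SE) and adjusted p = 0.216 and 0.575. Lsat_1_v5_gn_5_22340, with the term oxidation-reduction process, had 79.6, 77.5 and 81.9 FPKM in LCdM1 and 53.4, 41.9 and 48.5 FPKM in LCdM0. Its leaf groups were separate, while its roots had 30.3, 33.5 and 38.4 FPKM in RCdM1 and 21, 17.4 and 50.0 FPKM in RCdM0, a change against the direction of the selection (0.35 ± 0.65, SE). Over the oxidation-reduction list 6 of 220 genes were called lower and 0 higher in melatonin roots, and 1 of 199 lower and 0 higher in melatonin leaves.

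In secondary and hormone metabolism, Novelgene0984 was described as a caffeoyl-CoA O-methyltransferase, an enzyme of the path to lignin monomers. It had 17, 11.4 and 24.1 FPKM in LCdM1 and 5.93, 17.9 and 5.19 FPKM in LCdM0, and 54, 63.8 and 81.2 FPKM in RCdM1 and 39.7, 56.5 and 70.4 FPKM in RCdM0. Its groups overlapped in both organs, and its root change was against the direction of the selection (0.27 ± 0.29, SE). Lsat_1_v5_gn_3_45581, with terms of plant hormone signal transduction and response to hormone, had 6.59, 8.38 and 8.12 FPKM in RCdM1 and 6.73, 2.9 and 13.2 FPKM in RCdM0, with a root change of 0.20 ± 0.54 (SE). The oxidase homolog Novelgene1418 had 38.4, 36 and 42.1 FPKM in LCdM1 and 32.4, 33.4 and 42 FPKM in LCdM0. These 3 genes thus showed no separation in melatonin plants. Of the phenylpropanoid and flavonoid list 2 of 67 genes were called lower in melatonin roots and 1 of 58 higher in melatonin leaves, and of the hormone list 1 of 74 lower in roots and 0 of 70 in leaves.

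Kinases are enzymes that pass phosphate to proteins or other substrates. Besides Lsat_1_v5_gn_7_111881, the protein kinase list held the members Lsat_1_v5_gn_5_177300, Lsat_1_v5_gn_6_69600 and Lsat_1_v5_gn_7_76261. Their leaf changes in melatonin plants were 0.73 ± 0.34, 0.78 ± 0.26 and 0.19 ± 0.33 (SE), and their root changes were -0.51 ± 0.27, -0.21 ± 0.20 and -0.14 ± 0.21 (SE), in this order. All had the signs of the selection, and none of the 3 passed the adjusted test. In the whole kinase list 0 of 133 genes were called in melatonin roots and 0 of 129 in melatonin leaves, and 1 of 135, Lsat_1_v5_gn_7_111881, in the difference between the organs. Lsat_1_v5_gn_6_69600, which also has terms of transport driven by ATP, was the only member of the transmembrane transport list, in which 6 of 89 genes were called higher and 3 lower in melatonin roots and 0 of 80 in leaves.

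In lipid metabolism, Lsat_1_v5_gn_1_58781 had 40.4, 75.6 and 98 FPKM in RCdM1 and 269.9, 174 and 165 FPKM in RCdM0, with -1.55 ± 0.33 (SE), adjusted p = 0.0694, and its root groups did not overlap. The steroid gene Lsat_1_v5_gn_3_47540 had 43.6, 47.1 and 50.9 FPKM in RCdM1, 58.3, 76.4 and 64.5 FPKM in RCdM0, 26.4, 34.9 and 42.4 FPKM in LCdM1 and 21.7, 24.7 and 21 FPKM in LCdM0. It was 1 of the 14 members separated in both organs. The lipid list had 1 of 117 genes called lower in melatonin roots and 0 of 107 in leaves, and the terpenoid and steroid list 1 of 66 lower in roots and 0 of 63 in leaves. Lsat_1_v5_gn_2_105441, with terms of calcium ion binding and the extracellular matrix, had 4.71, 4.08 and 3.35 FPKM in RCdM1 and 8.66, 9.5 and 8.21 FPKM in RCdM0, and its leaf groups overlapped. The calcium list had 1 of 28 genes called higher in melatonin roots and 0 of 27 in leaves. Lsat_1_v5_gn_8_89001, with the term protein folding, had 3.33, 4.77 and 4.3 FPKM in RCdM1 and 6.13, 6 and 8.87 FPKM in RCdM0, separate groups, while its leaf change was -0.26 ± 0.47 (SE). In the protein folding list 1 of 21 genes was called lower in melatonin roots and 0 of 23 in leaves.

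The plasma membrane gene Lsat_1_v5_gn_2_59820 had 20.1, 30.4 and 27.3 FPKM in RCdM1 and 104, 62.9 and 45.1 FPKM in RCdM0, and 513, 602 and 892 FPKM in LCdM1 and 299, 521 and 331 FPKM in LCdM0. Its root groups were separate and its leaf groups overlapped by a small margin, and the difference between the changes was -2.16 ± 0.51 (SE), adjusted p = 0.0824. Lsat_1_v5_gn_3_80041, with terms of nucleic acid metabolism and response to stimulus, had 111, 140.3 and 122 FPKM in LCdM1 and 85.6, 68.5 and 48.8 FPKM in LCdM0, which were separate, and 876, 905 and 974 FPKM in RCdM1 and 1974, 973 and 1739.8 FPKM in RCdM0, which met at the edge. Lsat_1_v5_gn_4_33880, with the term single-organism metabolic process, had 34.5, 36.5 and 44.3 FPKM in RCdM1 and 189, 77.4 and 167 FPKM in RCdM0, with -1.79 ± 0.37 (SE), adjusted p = 0.0619. Its leaves had 14.3, 18.4 and 18.4 FPKM in LCdM1 and 12.8, 13.9 and 14 FPKM in LCdM0, so that it was separated in both organs with a small leaf change of 0.30 ± 0.29 (SE). Lsat_1_v5_gn_3_54620, with the term protein modification, was also separated in both organs, by -0.79 ± 0.22 in roots and 0.61 ± 0.26 in leaves (SE). For 4 further members, Lsat_1_v5_gn_2_21060 (regulation of system process), Lsat_1_v5_gn_5_126841 (gamete generation), Lsat_1_v5_gn_8_69601 (hydrolase activity) and Lsat_1_v5_gn_1_129101 (plant-pathogen interaction), the root changes were -0.75 ± 0.30, -0.55 ± 0.18, -0.43 ± 0.25 and -0.77 ± 0.25 (SE). None of these passed the adjusted test.

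Other members with a high score have no annotation in the tables used. Lsat_1_v5_gn_9_72100 had 88.1, 90.4 and 102.1 FPKM in RCdM1 and 312, 247 and 156 FPKM in RCdM0, and 92.7, 94.2 and 185 FPKM in LCdM1 and 66.5, 63.1 and 28.9 FPKM in LCdM0, and it was separated in both organs. Lsat_1_v5_gn_7_105960 was listed at 0 in all 3 RCdM1 libraries and had 3.95, 7.95 and 10.2 FPKM in RCdM0, while leaves had 34.7, 28.3 and 52.7 FPKM in LCdM1 and 20.0, 21 and 24.2 FPKM in LCdM0. Its level was listed at 0 in 2 of 3 RCdM5 libraries as well. Lsat_1_v5_gn_2_125820 was among the most abundant members, with 483, 613 and 830.3 FPKM in RCdM1 and 1210.2, 1308 and 1147 FPKM in RCdM0, and its leaf groups overlapped, at 74.9, 106 and 120.1 FPKM in LCdM1 and 64.8, 54.7 and 84.5 FPKM in LCdM0. Lsat_1_v5_gn_7_21481 had 48.7, 45.9 and 31.1 FPKM in RCdM1 and 282, 135 and 120.0 FPKM in RCdM0, separate groups with -1.99 ± 0.40 (SE), adjusted p = 0.0575. The root groups of Lsat_1_v5_gn_9_27681 were separate too, with a change of -0.87 ± 0.29 (SE), whereas Lsat_1_v5_gn_4_18860 (-0.53 ± 0.42, SE) overlapped in roots and Lsat_1_v5_gn_6_19780 (-0.45 ± 0.19, SE) overlapped by 1 library. None of these 7 genes passed the adjusted test in roots, and none did in leaves.

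A minority of members went against the selection in melatonin plants. In roots 7 members were higher on day 1, led by Lsat_1_v5_gn_7_11501, Lsat_1_v5_gn_5_22340 and Novelgene0984, whose values are given above. In leaves 13 of the 98 tested were lower on day 1, led by Lsat_1_v5_gn_2_78600 (not annotated), with 14, 21.9 and 24 FPKM in LCdM1 and 24.3, 37.4 and 23.7 FPKM in LCdM0, a change of -0.49 ± 0.26 (SE), adjusted p = 0.556. The groups of Lsat_1_v5_gn_2_78600 overlapped in leaves, and Lsat_1_v5_gn_7_11501 and Novelgene1860 came next. At an unadjusted p under 0.05 no member went against the selection in either organ.

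The share of new genes and the number of isoforms, which the selection did not use, were close to those of other genes. The median level was close as well, but the level filter and the score used FPKM values, so it is a description. None of these features was tested. New genes made up 12 of 100 members and 11.2% of the 16027 genes. Just 1 isoform was listed for 38 members and for 33.9% of all, and the median number of isoforms was 2 in both. The median over genes of the mean FPKM of the 36 libraries was 22.2 for the members (quartiles 8.54 and 47.7) and 22.8 for all (7.85 and 69.4).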

How the data were processed

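RNA-seq libraries of roots and leaves (36, in 12 groups of 3) were grouped by their labels. The authors deposited FPKM per isoform. By their methods, clean paired-end reads were aligned to consensus Iso-Seq transcripts with TopHat 2.0.12 and counted with HTSeq. The submitters' processing notes name Bowtie2 2.0.6. Which tool gave the isoform values is not given in the sources used. A median of 1182.5 values per library was above 0 and under 0.001 FPKM, so whole reads were not recovered, the depth behind a value is unknown and precision was judged by the spread of the 3 replicates.

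The 59872 isoforms were summed to 19584 genes. Genes with at least 1 FPKM in 3 libraries of a fit were tested as log2(FPKM + 1) with limma 3.58.1 (lmFit, contrasts.fit, eBayes with a trend) under R 4.3.3, with Benjamini-Hochberg adjustment over all genes of the fit and a threshold of 0.05. Fold changes on this scale understate those of low genes. Each fit held the libraries that the separation and the score did not use (CdM0, CdM1, CdM5 and Cd5), 12 for a tissue and 24 for both. The level filter of the selection had counted these libraries too. The members, lists and tests were chosen with earlier results of these data known. Named were the 12 members of highest score, those called, up to 15 others with an annotation, 3 per organ against the selection, and those at the border. Members outside this rule were named as examples after their values were seen. The 20 lists came from the term tables of the study. On simulated data with 100 changed genes per size, 49 genes with a log2 change of 1 and 81 with a change of 2 were recovered in melatonin roots, with 5 false calls among 17043 genes. In melatonin leaves 46 and 81 were recovered, with 8 false calls among 16543 genes, and for the root change minus the leaf change 17 and 71, with 5 false calls among 17746 genes. The changed genes were drawn from those with a mean log2(FPKM + 1) above 3, and the noise was normal. The recovery of lower genes, which some members are, was therefore not measured. The changes were added upward to RCdM1 or LCdM1, and to RCdM1 for the difference between the organs. All groups of a gene otherwise had the same mean, in roots and leaves alike for this difference. The recovery of falls, as of members in roots, or of genes at unlike levels in both organs was not measured either. Alternatives were a pseudocount of 0.1, no filter, scaling of libraries, all 18 or 36 libraries, the compared groups alone, a replicate block, Q30 as a covariate, the main isoform and each library left out. Tables were made with Python 3.11.15 and pandas 2.3.3.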

Additional observations from a re-analysis of the deposited data

Results flagged for a closer look

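In 5 members the change of melatonin roots from day 0 to day 1 differed from that of melatonin leaves by the limma test of the difference itself. The root change minus the leaf change was -3.62 ± 0.51 for Lsat_1_v5_gn_9_26160 (adjusted p = 0.00266), -2.61 ± 0.42 for Lsat_1_v5_gn_3_70280 (adjusted p = 0.00766), -2.50 ± 0.52 for Lsat_1_v5_gn_6_20321 (adjusted p = 0.0454), -2.18 ± 0.38 for Lsat_1_v5_gn_7_111881 (adjusted p = 0.0143) and -1.27 ± 0.27 for Lsat_1_v5_gn_2_128000 (adjusted p = 0.0499), each with its SE. In all 5 the mean of the roots was lower and that of the leaves higher on day 1. Over the alternatives the adjusted p was between 0.000383 and 0.0145 for Lsat_1_v5_gn_9_26160, up to 0.0509 for Lsat_1_v5_gn_3_70280, up to 0.0569 for Lsat_1_v5_gn_7_111881, up to 0.124 for Lsat_1_v5_gn_6_20321 and up to 0.132 for Lsat_1_v5_gn_2_128000.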

How the results depend on the processing

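The count of members called depended on the fit, while the median change and the separation of the groups mostly did not. In melatonin roots, 4 members were called on day 1 against day 0, against 1 with no filter on low values, 7 with all libraries in the fit, 2 with the compared groups alone and 0 with Q30 as a covariate. With all libraries the counts were 3 in melatonin leaves, 10 for the difference between the organs and 2 for roots on day 5 against day 1, and Q30 as a covariate gave 3 for the difference between the organs. For leaves on day 5 against day 1 the compared groups alone gave 2. Leaving out each library in turn gave 1 to 4 in roots, 0 to 2 in leaves, 2 to 8 for the difference between the organs, 0 to 9 for leaves on day 5 against day 1, 0 to 1 for melatonin against Cd alone in leaves on day 5, and 72 to 77 for root against leaf at day 0 of melatonin, which was 79 with all of them. The median change in roots was -0.64 with a pseudocount of 0.1 and -0.62 to -0.54 with each library left out, and that in leaves was 0.052 with Q30 as a covariate and 0.33 to 0.62 with each library left out.

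The labels give every group the numbers 1 to 3, and nothing says that a number marks a shared plant or day. The median correlation of deviations of libraries with the same number was 0.03 in roots and -0.02 in leaves, so the numbers were not taken as pairs. With the replicate number as a block the counts were 6 in roots, 0 in leaves, 6 for the difference between the organs, and 3 in roots and 5 in leaves on day 5 against day 1.

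Scaling of libraries and the main isoform gave 52 and 52 separated members in melatonin roots, 30 and 27 in leaves and 16 and 13 in both. Of the 100 members, 93 were also chosen with a pseudocount of 0.1, 95 with scaling and 78 with the main isoform. Groups of 3 libraries, values without counts and the overlap of quality with the day in melatonin plants limit all these results.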
